A study of Mus musculus with 6 samples.

Results

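The 10 genes Hk2, Gpi1, Pfkl, Aldoa, Tpi1, Gapdh, Pgk1, Eno1, Pkm and Ldha encode enzymes that carry glucose to lactate, and their transcripts were measured in LSK cells, the lineage-negative, Sca-1-positive, c-Kit-positive fraction of bone marrow that holds haematopoietic stem cells (HSCs) and early progenitors. The genes were chosen with earlier results of these data known. Every probe on the array that carries such a gene name was taken, whatever its value. This gave 31 of 56605 probes that are not controls, of which 30 were among the 32074 tested, and each of the 10 genes was among the 15136 genes tested. Cells came from C57BL/6 mice at postnatal days 6 to 8, and RNA of 3 control (Atg5w/w;VaviCre+) and 3 Atg5f/f;VaviCre+ samples was hybridised to 1-colour Agilent arrays of 60-base probes, with 1 array per sample. Atg5 encodes a protein needed to form autophagosomes. In the second group, called Atg5f/f;Vav here, both Atg5 alleles carry loxP sites, and in both groups the Vav promoter drives Cre recombinase in haematopoietic cells, so that Cre itself is shared and deletion is limited to cells that have expressed it. Whether mice were pooled for a sample is not given in the sources used here. The replicates are therefore arrays, and p-values measure only the spread between these arrays, which may be technical.

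Glycolysis splits glucose in the cytosol and yields ATP, NADH and pyruvate without the use of oxygen, and lactate dehydrogenase then turns pyruvate into lactate while restoring NAD+. HSCs in the bone marrow are known to rely on glycolysis more than their dividing progeny do. Autophagy removes mitochondria, the site of the competing oxidative route. Several steps exist as isozymes, related proteins from different genes that catalyse the same reaction in different tissues. A transcript level does not measure the activity of an enzyme or the flux through the pathway.

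Each value below is the log2 of a spot's intensity minus the log2 of the 75th percentile of that array, so that 0 is the brightness of the array's 75th percentile and a difference of 1 is a doubling. Where a gene has several probes, the brightest is given and the others follow. A difference is always Atg5f/f;Vav minus control, with its standard error (SE) and with a p from limma adjusted over all probes tested (Benjamini-Hochberg, threshold 0.05). Brightness depends on the probe, so levels of different genes are not compared.

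Any pair of arrays correlated at an r of 0.952 to 0.993 (Pearson, across probes, which are not independent). Probes well above background made up 57.6% to 58.2% on control arrays and 51.6% to 54.8% on Atg5f/f;Vav arrays. The arrays shared 1 slide, on which controls filled row 1 and Atg5f/f;Vav filled row 2, and the row cannot be told apart from the genotype. The probe for Atg5 itself was higher on the arrays labelled Atg5f/f;Vav, by 0.54 (adjusted p = 0.0209). It starts at base 2251 of the transcript, and its place relative to the deleted part was not determined. Directions below follow the labels of the arrays. All 6 markers of LSK cells were well above background on all arrays, among which Ly6a, which encodes Sca-1, was higher in Atg5f/f;Vav by 1.57 (adjusted p = 0.00623) and Meis1 was lower (difference −0.78, adjusted p = 0.0484). Kit (−0.38, adjusted p = 0.0563) and Flt3 (−0.87, adjusted p = 0.0675) were lower on every Atg5f/f;Vav array than on any control, without passing the threshold. Gata2 was higher on every Atg5f/f;Vav array (0.26, adjusted p = 0.103), and for Cd34 the groups overlapped (−0.27). Markers of other cells were present too. Their counts stand beside 21.1% of all genes called higher and 13.5% called lower. Of 9 erythroid markers 3 rose and 4 fell, and their summed signal, in multiples of the 75th percentile, was 350.6 to 714.8 on control and 146.1 to 185.3 on Atg5f/f;Vav arrays. Of 8 neutrophil markers 1 rose and 6 fell, with sums of 172.9 to 273.4 and 212.2 to 264.9. Of 5 stromal markers tested 3 fell, with sums of 9.64 to 39.6 and 5.37 to 8.54, and Col1a1 was not well above background on any Atg5f/f;Vav array. Of 6 megakaryocyte markers 1 rose and 3 fell, 1 of 6 B cell markers rose, and none of 4 macrophage or 3 T and NK cell markers passed the threshold. Ppbp, a megakaryocyte marker that fell, was likewise not well above background on any Atg5f/f;Vav array. Ppbp and Col1a1 passed the detection filter through the control arrays alone, so that their falls are descriptions and not tests. The part of other cells in the results below was not tested, and in RNA of a sorted population fewer cells of a type and less RNA per cell cannot be told apart.

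Of the 10 glycolysis enzymes, 6 rose in Atg5f/f;Vav LSK cells and none fell. For comparison, the share of all genes called higher was 21.1%, and the share called lower was 13.5%. The 6 were Aldoa, Tpi1, Gapdh, Pgk1, Eno1 and Ldha, with differences of 0.50 to 0.88. Together they form the lower part of the pathway from the cleavage of fructose bisphosphate to lactate, with the exception of Pkm, which did not pass the threshold, and of phosphoglycerate mutase, which is described among the isozymes. The 3 enzymes of the upper part, Hk2, Gpi1 and Pfkl, did not pass it, Gpi1 narrowly (adjusted p = 0.0531). For Pfkl this was read on a probe that lies before the RefSeq start site. Pfkp, an isozyme of an upper step that is described below, did pass the threshold on its brightest probe. A difference between the upper and the lower part was not tested. The median difference of the 10 genes was 0.50, beside 0.02 over all genes tested. For 7 of the 10 genes the 2 groups stood apart on the arrays, each higher in Atg5f/f;Vav, against 33.2% of all genes apart in that direction and 24.3% in the other. Of the 10 enzymes 8, all but Hk2 and Pfkl, were among the brightest 10% of genes. Over those 1514 genes the median difference was 0.29 and 43.1% were called higher. Without control replicate 1, or without control replicate 2, none of the 10 passed the adjusted threshold in limma, and the share of all genes called higher fell to 0.707% and 0.562%. In each case 6 of the 10 had an unadjusted p under 0.05 in limma. The share of all genes at that unadjusted p is not given here, so this count has no background beside it. Without Atg5f/f;Vav replicate 2 the count was 3 (Tpi1, Pgk1 and Ldha), beside 14.1% of all genes.

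**Figure D1:**
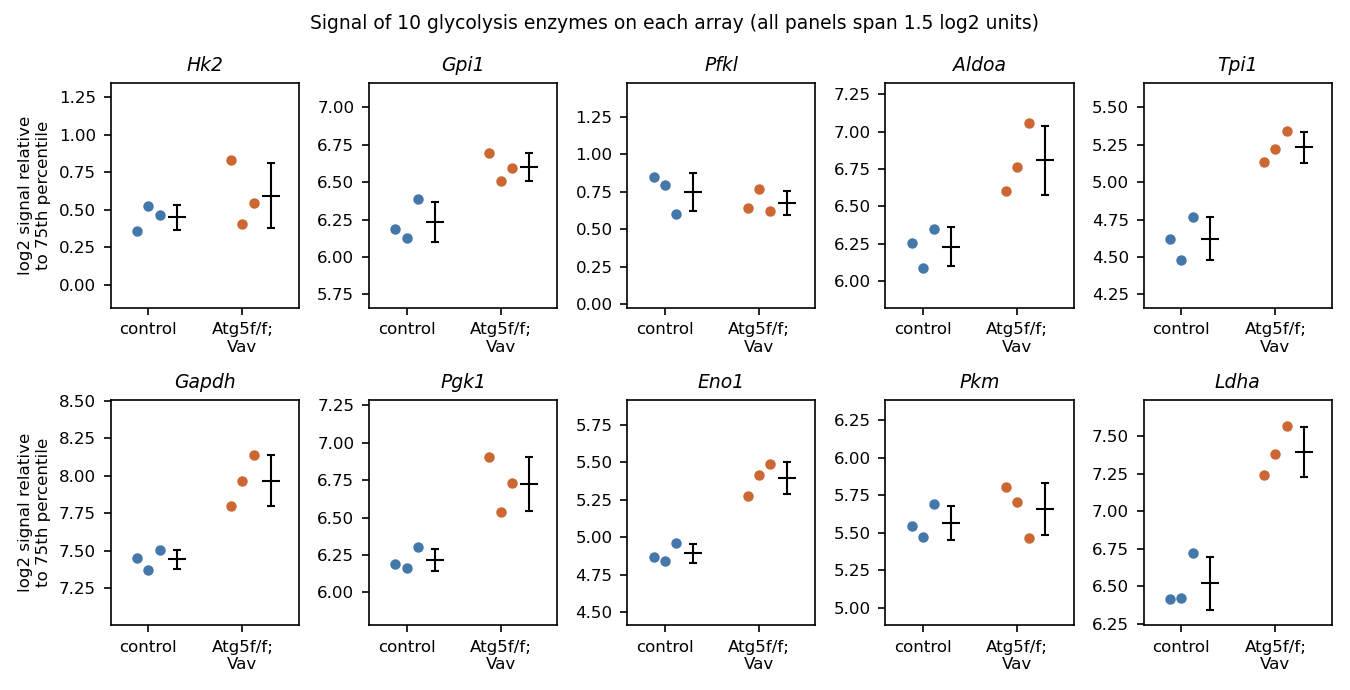
Log2 signal relative to the array's 75th percentile for the 10 enzymes in pathway order, with 1 point per array and the mean ± SD of each group beside the points (n = 3); each panel spans the same log2 range around its own level. Groups do not overlap for Gpi1, Aldoa, Tpi1, Gapdh, Pgk1, Eno1 and Ldha, and overlap for Hk2, Pfkl and Pkm. The Pfkl probe drawn lies before the RefSeq start site.

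A further probe is shown for 6 of the enzymes, starting at base 1515 of the transcript for Gpi1, 539 for Tpi1, 346 for Gapdh, 413 for Eno1, 1087 for Pkm and 351 for Ldha. These probes were picked as examples after their values were seen and are not all the further probes. Their sequences are shown because they read the transcript at another place than the brightest probe does, and they are written 5′ to 3′ in the sense of the transcript.
Gpi1, chr7:34987856-34989053, minus strand: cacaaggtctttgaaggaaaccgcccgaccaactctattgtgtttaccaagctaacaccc
Tpi1, chr6:124762454-124762513, minus strand: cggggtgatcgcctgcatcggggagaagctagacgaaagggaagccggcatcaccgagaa
Gapdh, chr6:125113312-125113371, minus strand: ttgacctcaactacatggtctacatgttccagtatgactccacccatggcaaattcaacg
Eno1, chr4:149618134-149618359, plus strand: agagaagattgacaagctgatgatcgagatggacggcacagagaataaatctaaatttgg
Pkm, chr9:59518501-59519397, plus strand: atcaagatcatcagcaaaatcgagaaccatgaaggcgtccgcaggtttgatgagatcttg
Ldha, chr7:54103010-54103069, plus strand: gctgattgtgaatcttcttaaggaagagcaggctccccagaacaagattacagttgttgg
Coordinates are those of the array design on mm9, and the intervals of Gpi1, Eno1 and Pkm are longer than the 60 bases of the probe because these probes cross an intron. The probes of Tpi1, Gapdh, Eno1 and Ldha rose, with differences of 0.69, 0.88, 0.66 and 0.81, and those of Gpi1 (0.45, adjusted p = 0.0698) and Pkm (0.50, adjusted p = 0.15) did not pass the threshold.

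Hexokinase 2, encoded by Hk2, phosphorylates glucose on entry and is the form that many proliferating cells induce. Control arrays read 0.36, 0.52 and 0.47, and Atg5f/f;Vav arrays read 0.83, 0.41 and 0.54. Atg5f/f;Vav replicate 1 stood above all controls and replicate 3 barely so, whereas replicate 2 lay among them. The difference was 0.15 (SE 0.14, adjusted p = 0.437), with a 95% confidence interval from −0.19 to 0.48.

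Gpi1 encodes glucose-6-phosphate isomerase. Control arrays read 6.19, 6.13 and 6.39, and Atg5f/f;Vav arrays read 6.69, 6.51 and 6.59, so that every Atg5f/f;Vav array was above every control. The difference of 0.36 (SE 0.12, adjusted p = 0.0531) fell short of the threshold, and the other 3 probes gave 0.31, 0.45 and 0.42 without passing it. It passed with normexp background correction, with the deposited values, with an intensity trend in eBayes and among probes detected on all 6 arrays.

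Pfkl encodes the liver-type subunit of phosphofructokinase, the enzyme at which the pathway is committed and chiefly regulated. Its brightest probe lies before the RefSeq start site, and whether this probe reads Pfkl was not determined. On it, control arrays read 0.85, 0.79 and 0.60, and Atg5f/f;Vav arrays read 0.64, 0.77 and 0.62, and the groups overlapped. The difference was −0.07 (SE 0.12, adjusted p = 0.649), with a 95% confidence interval from −0.35 to 0.20. Another probe, which starts at base 2425 of the transcript, gave 0.32 (adjusted p = 0.114), and the remaining probe was well above background on 1 array and was not tested.

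Aldoa encodes aldolase A, which cleaves fructose 1,6-bisphosphate, and it was the start of the stretch that rose. Control arrays read 6.25, 6.09 and 6.35, and Atg5f/f;Vav arrays read 6.60, 6.77 and 7.06. All Atg5f/f;Vav arrays were higher, with a wider spread than the controls. The difference was 0.58 (SE 0.15, adjusted p = 0.0289), a 1.49-fold rise on the only probe.

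Tpi1 encodes triosephosphate isomerase, which interconverts the products of aldolase. Control arrays read 4.62, 4.48 and 4.77, and Atg5f/f;Vav arrays read 5.14, 5.22 and 5.34, without overlap. The difference was 0.61 (SE 0.12, adjusted p = 0.0173), or 1.53-fold. The probe printed above and another probe gave 0.69 and 0.74, and both passed the threshold. The remaining probe, at chr6:124761622-124761681 of mm9, gave −0.03 (adjusted p = 0.858).

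Gapdh encodes glyceraldehyde-3-phosphate dehydrogenase, the step that yields NADH, and is often used as a reference gene on the assumption of a steady level. Control arrays read 7.45, 7.37 and 7.50, and Atg5f/f;Vav arrays read 7.80, 7.97 and 8.14. Every Atg5f/f;Vav array was above every control. The difference was 0.53 (SE 0.12, adjusted p = 0.0228), or 1.44-fold. All 7 probes passed the threshold with differences of 0.46 to 0.88, of which the 0.88 belonged to the probe printed above and to its neighbour. The brightest probe shares a run of 34 bases with a probe for Gm5523, another gene model, and how much of its signal comes from either cannot be told apart.

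Pgk1 encodes phosphoglycerate kinase 1, the enzyme of the earlier of the ATP-yielding steps. Control arrays read 6.19, 6.16 and 6.30, and Atg5f/f;Vav arrays read 6.90, 6.54 and 6.73, without overlap. The difference was 0.51 (SE 0.13, adjusted p = 0.0271), or 1.42-fold. The other probe lies on the opposite strand and differed by −0.02 (adjusted p = 0.934).

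Eno1 encodes enolase 1, which makes phosphoenolpyruvate. Control arrays read 4.87, 4.84 and 4.96, and Atg5f/f;Vav arrays read 5.28, 5.42 and 5.48, and the groups stood apart with little spread in either. The difference was 0.50 (SE 0.11, adjusted p = 0.0195), or 1.42-fold. Eno1b, a retrotransposed copy, has a probe that shares 53 consecutive bases with this probe, so their signals cannot be separated, and the 3 probes for Eno1b differed by 0.52, 0.86 and 0.55. The probe of Eno1 printed above gave 0.66 (adjusted p = 0.0174), and the remaining probe 0.15 (adjusted p = 0.352).

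Pkm encodes the muscle-type pyruvate kinase, which makes pyruvate and the last of the ATP and, by alternative splicing, comes in forms of different regulation. Control arrays read 5.54, 5.47 and 5.69, and Atg5f/f;Vav arrays read 5.80, 5.70 and 5.47. Atg5f/f;Vav replicate 3, the highest of its group for Aldoa, Tpi1, Gapdh, Eno1 and Ldha, was level with the lowest control here. The difference was 0.09 (SE 0.13, adjusted p = 0.613), with a 95% confidence interval from −0.22 to 0.40. The probes of Pkm disagreed. A near neighbour of the brightest gave 0.05, the probe printed above 0.50, and a probe at chr9:59520400-59520459 of mm9 fell by 0.67 (difference −0.67, SE 0.15, adjusted p = 0.0212), from −0.59, −0.51 and −0.82 in controls to −1.20, −1.17 and −1.57. This was the only probe of the 30 tested that fell. The array design does not say which splice form each probe reads. Whether the probe that fell reads a spliced transcript of Pkm was not determined.

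Ldha encodes the lactate dehydrogenase subunit that favours the making of lactate, and it changed most of the 10 genes. Control arrays read 6.41, 6.42 and 6.72, and Atg5f/f;Vav arrays read 7.24, 7.38 and 7.57. The lowest Atg5f/f;Vav array was well above the highest control. The difference was 0.88 (SE 0.14, adjusted p = 0.0149), or 1.84-fold, and the probe printed above gave 0.81 (SE 0.16, adjusted p = 0.0171).

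Over all probes of the 10 genes, 16 of the 30 tested rose and 1 fell, where 17.3% of all probes were called higher and 34.4% in either direction. Every probe of Gapdh and Ldha passed the threshold, whereas Tpi1, Pgk1, Eno1 and Pkm each had at least 1 probe that did not follow the brightest. Which transcript these probes read was not determined. Those of Tpi1 and Pgk1 were dim, with control means of −3.48 and −3.02, and that of Pgk1 lies on the opposite strand.

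**Figure D2:**
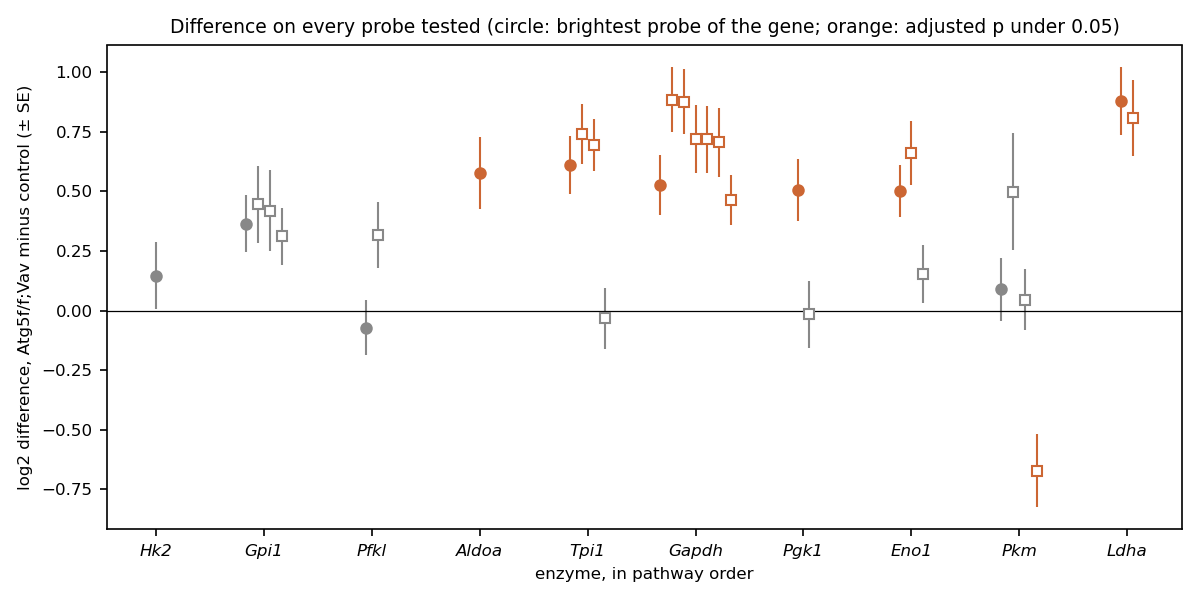
Log2 difference, Atg5f/f;Vav minus control, with its SE for each of the 30 tested probes, grouped by enzyme in pathway order; circles are the brightest probe of a gene, open squares the others, and orange marks an adjusted p under 0.05. All 7 probes of Gapdh and both of Ldha lie above 0, and 1 probe of Pkm is the only one called lower.

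The promoters of the enzymes were read as well, since several of these genes are textbook targets of hypoxia-inducible factor, whose response elements hold the letters ACGTG or GCGTG. RefSeq start sites on GRCm38.p6 were found for all 10 genes, 16 in all, and the 250 bases before each were searched on both strands. ACGTG, which reads CACGT on the other strand, was present in 6 of the 16 windows, at least once for Hk2, Aldoa, Pgk1, Pkm and Ldha, and in 16.6% of all 32851 windows of the same length. The windows of Aldoa that hold ACGTG overlap and share the same match. Counted by gene, ACGTG was found for 5 of 10, beside 18.5% of all genes. The 16 windows belong to 10 genes and the 32851 to 27025, so the enzymes had more windows per gene in which to match. GCGTG was found for Pfkl, Gapdh, Eno1 and Ldha, 4 of 10, beside 30.9% of genes, and CACGTG, which holds ACGTG on both strands, for Ldha alone, beside 6.9%. The 3 windows with the most matches to ACGTG are printed 5′ to 3′ on the strand of the gene, with every match in capitals.
Ldha, chr7:46845554-46845803, plus strand: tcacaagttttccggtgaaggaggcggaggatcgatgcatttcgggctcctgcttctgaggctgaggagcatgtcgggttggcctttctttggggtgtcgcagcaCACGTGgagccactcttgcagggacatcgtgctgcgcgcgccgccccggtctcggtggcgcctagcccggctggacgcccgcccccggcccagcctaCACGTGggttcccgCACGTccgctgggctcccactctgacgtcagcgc
Pgk1, chrX:106186850-106187099, plus strand: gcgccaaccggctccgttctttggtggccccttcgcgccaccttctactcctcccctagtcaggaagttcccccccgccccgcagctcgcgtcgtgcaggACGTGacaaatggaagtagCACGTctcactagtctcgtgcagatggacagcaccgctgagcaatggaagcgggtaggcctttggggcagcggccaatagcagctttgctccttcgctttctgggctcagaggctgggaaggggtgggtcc
Hk2, chr6:82774455-82774704, minus strand: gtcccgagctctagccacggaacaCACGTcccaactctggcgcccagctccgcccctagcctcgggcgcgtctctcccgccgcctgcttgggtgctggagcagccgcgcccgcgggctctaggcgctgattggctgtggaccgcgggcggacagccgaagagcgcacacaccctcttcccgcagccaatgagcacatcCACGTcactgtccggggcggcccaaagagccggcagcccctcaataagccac
Ldha held 5 matches, 4 of them in 2 copies of CACGTG, and Pgk1 and Hk2 held 2 each. Ldha and Pgk1 rose, and Hk2 did not pass the threshold. Of the 6 genes that rose, 3 had a window with ACGTG, and so did 2 of the other 4. A match is a run of letters and not a site shown to be bound.

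The other isozymes of the pathway moved in both directions. Of 16 listed, 12 were tested, 3 rose and 3 fell, beside 21.1% of all genes called higher and 13.5% called lower, with a median difference of 0.43. Hkdc1, Gapdhs, Pgk2 and Ldhc, of which the last 3 are forms of the testis, did not reach the detection filter. Pgam1 encodes phosphoglycerate mutase 1, the step between Pgk1 and Eno1 that the 10 genes leave out. It read 4.18, 4.10 and 4.58 on control and 5.07, 4.81 and 4.94 on Atg5f/f;Vav arrays, without overlap, and rose by 0.65 (SE 0.16, adjusted p = 0.0235). Pfkp, the platelet-type phosphofructokinase, rose by 0.63 on its brightest probe (adjusted p = 0.0298). Its further probes gave 0.62 (adjusted p = 0.0252), 0.56 (adjusted p = 0.0472), 0.15 (adjusted p = 0.519) and −0.03 (adjusted p = 0.897). Pklr, the pyruvate kinase of liver and red cells, was not well above background on any control array and read −4.24, −3.51 and −2.11 on the Atg5f/f;Vav arrays. It was at least 2.96-fold higher there, a bound set by the lowest signal well above background on each control array. Pklr passed the detection filter through the Atg5f/f;Vav arrays alone, so that its place among the 3 that rose is a description and not a test. Beside it, Klf1, a transcription factor of erythroid cells, was higher by 2.95 (adjusted p = 0.0159) and, like Pklr, was highest on Atg5f/f;Vav replicate 3. Among erythroid markers Epor and Car1 were higher too, while Slc4a1, Alas2 and the globin genes Hba-a1 and Hbb-bt were lower.

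The isozymes that fell were Ldhb, Aldoc and Eno2. Ldhb encodes the lactate dehydrogenase subunit that favours the use of lactate. It read 3.45, 3.36 and 3.26 on control and 2.76, 2.35 and 1.38 on Atg5f/f;Vav arrays, where replicate 3 was the lowest by far. The difference was −1.19 (SE 0.33, adjusted p = 0.033), and its other probe gave −0.91 without passing the threshold (adjusted p = 0.0995). Aldoc, the aldolase best known from brain, read 0.99, 0.64 and 0.91 on control and 0.13, 0.19 and −0.75 on Atg5f/f;Vav arrays, a difference of −0.99 (SE 0.26, adjusted p = 0.03), and all 3 of its probes fell. Eno2, the neuronal enolase, differed by −1.40 (adjusted p = 0.0187). Hk1, the hexokinase of most tissues, gave −0.06 on its brightest probe (adjusted p = 0.685) but 0.97 on another (adjusted p = 0.0251), so that no direction can be given for the gene.

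Whether an enzyme and its isozyme changed unequally was asked within each array, where a single scaling factor per array cancels, although quantile normalisation does not. The log2 ratio of the enzyme's probe to the isozyme's probe was compared between the groups by a 2-sided exact permutation test for 6 pairs. With 3 arrays against 3, the smallest p this test allows is 0.1, so that no pair could pass 0.05. For Ldha over Ldhb the log2 ratio was 2.96, 3.06 and 3.46 on control and 4.48, 5.03 and 6.19 on Atg5f/f;Vav arrays, a shift of 2.07 (exact p = 0.1, adjusted over the pairs 0.12). The groups stood apart, with a wider spread in Atg5f/f;Vav. For Aldoa over Aldoc it was 5.26, 5.45 and 5.44 against 6.47, 6.58 and 7.81, a shift of 1.57 (exact p = 0.1, adjusted 0.12). Eno1 over Eno3, the muscle enolase, shifted by 0.38 and Pfkl over Pfkp by −0.71 (exact p = 0.1, adjusted 0.12 for each), again without overlap. With quantile normalisation the shift of Eno1 over Eno3 was 0.019 (exact p = 0.8), and with the mean of all probes of each gene that of Pfkl over Pfkp was −0.26 (exact p = 0.2). The brightest probe of Pfkl, used for the −0.71, lies before the RefSeq start site, and whether it reads Pfkl was not determined. Hk2 over Hk1 shifted by 0.21 with overlapping groups (exact p = 0.5), and with the mean of all probes of each gene by −0.19. The remaining pair, Pkm over Pklr, was counted in the adjustment but is not compared, since Pklr was not well above background on any control array.

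**Figure D3:**
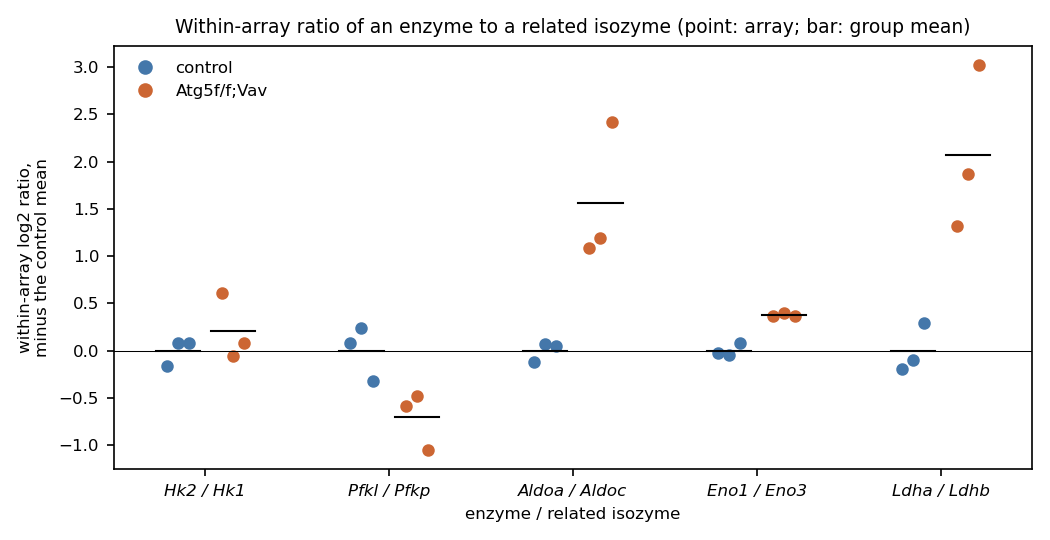
Within-array log2 ratio of an enzyme's probe to that of a related isozyme, minus the control mean of the ratio, with 1 point per array and a bar at each group mean (n = 3). The ratio moved towards Ldha and Aldoa in all 3 Atg5f/f;Vav arrays, by 2.07 and 1.57 on average. It moved towards Pfkp by 0.71, on a Pfkl probe that lies before the RefSeq start site. Pkm over Pklr is not drawn.

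Genes for the transport of glucose and lactate and for the regulators of flux were all measured, 13 of 13, of which 3 rose and 1 fell, near the 21.1% and 13.5% of all genes called higher and lower, with a median difference of 0.23. Slc16a1, a carrier of lactate and pyruvate across the cell membrane, read 1.40, 1.39 and 1.47 on control and 2.11, 2.18 and 2.95 on Atg5f/f;Vav arrays, a difference of 0.99 (SE 0.23, adjusted p = 0.0213). Bsg encodes basigin, the chaperone that brings this carrier to the membrane, and rose by 0.70 (SE 0.12, adjusted p = 0.0154). Mpc1, a subunit of the carrier that takes pyruvate into mitochondria, rose by 0.66 (SE 0.15, adjusted p = 0.0202). Pfkfb4, an enzyme that sets the level of the phosphofructokinase activator fructose 2,6-bisphosphate, was the gene that fell (difference −0.82, SE 0.21, adjusted p = 0.0279). Of the entry of glucose, Slc2a1 gave −0.20 (adjusted p = 0.498) and Slc2a3 −0.09 (adjusted p = 0.654), although another, dimmer probe of Slc2a3 fell by 0.56 (difference −0.56, adjusted p = 0.0407).

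The routes that branch from glycolysis were counted in the same way, again beside 21.1% of all genes called higher. Of 7 pentose phosphate enzymes 6 rose, with a median of 0.82, led by G6pdx, the enzyme of entry that yields NADPH (1.28, adjusted p = 0.0203), and Taldo1, the transaldolase (0.85, adjusted p = 0.0165). Of 17 citric acid cycle enzymes 14 rose, with a median of 0.55, led by Idh3a, a subunit of NAD-dependent isocitrate dehydrogenase (1.0, adjusted p = 0.0149), and Sdhd, a subunit of succinate dehydrogenase (0.81, adjusted p = 0.0153). For all 17 the groups stood apart on the brightest probe, each higher in Atg5f/f;Vav. Of all genes 33.2% were apart in that direction and 24.3% in the other. Dimmer probes of Idh3g (−0.72, adjusted p = 0.0204), Suclg1 (−0.56, adjusted p = 0.0228) and Sdha (−0.42, adjusted p = 0.0453) were called lower. Dimmer probes of Tkt, a pentose phosphate enzyme, gave −0.47 and −0.53 without passing. All other further probes of these 2 lists rose or did not pass. Of 7 enzymes of gluconeogenesis 4 were tested and 2 rose, Pcx, pyruvate carboxylase (0.90, adjusted p = 0.0304), and G6pc3, a glucose-6-phosphatase (0.65, adjusted p = 0.0253). The median of the 10 glycolysis enzymes, 0.50, was thus below those of the pentose phosphate and citric acid cycle lists, a difference that was not tested. Over the lists of isozymes, transport and branching routes together, 28 genes rose, Pklr among them, and 4 fell. None passed the adjusted threshold in limma without control replicate 1 (29 higher and 4 lower at an unadjusted p under 0.05) or without control replicate 2 (28 and 4). The share of all genes at that unadjusted p is not given here.

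**Figure D4:**
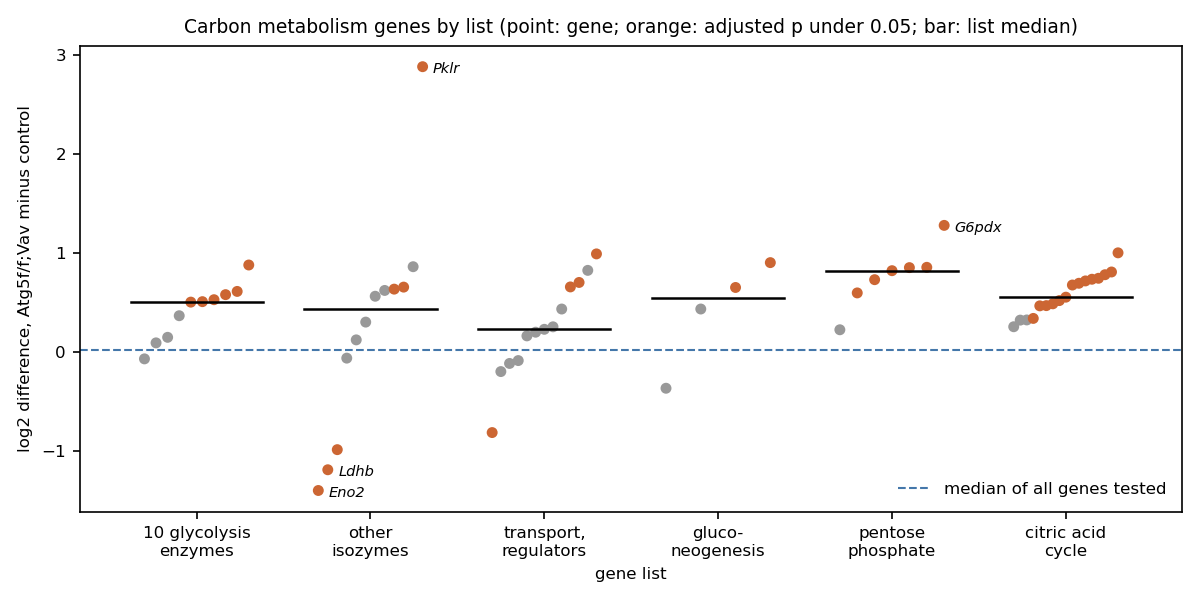
Log2 difference, Atg5f/f;Vav minus control, of each tested gene in 6 lists of carbon metabolism; points are genes, orange marks an adjusted p under 0.05, bars are list medians and the dashed line is the median of all genes tested (0.02). The 10 glycolysis enzymes lie between −0.07 and 0.88, whereas the other isozymes reach from −1.40 to the fitted 2.88 of Pklr, whose control arrays were not well above background.

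The shape of the change over the 6 arrays was set out for each gene around its own mean. The median over the genes of the log2 signal minus the gene's own mean was −0.26, −0.30 and −0.17 in controls and 0.20, 0.17 and 0.30 in Atg5f/f;Vav. Eno1 lay closest to this profile, with a root mean square difference of 0.053. Pfkl lay farthest, at 0.303, on its brightest probe, which lies before the RefSeq start site. Outside the 10 genes, the 5 with the lowest root mean square difference over the 6 arrays were Akr1a1, Ube2g2, Mrpl27, Brd7 and Lsm8, at 0.018 to 0.025 on the log2 scale. Likeness over 6 arrays is largely likeness in the step between the groups.

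The size of the rise depended on how the arrays were put on 1 scale. With the 75th percentile taken over probes detected on all arrays, the median of all genes moved from 0.02 to −0.19 and that of the 10 enzymes to 0.30, which leaves the distance between them at 0.49. With quantile normalisation, which gives every array the same distribution, the median of the enzymes was 0.17 and the distance 0.18. Aldoa, Tpi1, Gapdh, Pgk1, Eno1 and Ldha were above 0 under all 5 scalings drawn, whereas Hk2 turned to −0.06 with the percentile over detected probes, and Pkm to −0.12 there and −0.29 with quantile normalisation. The count of enzymes called higher was 3 (Tpi1, Eno1 and Ldha), beside 12.7% of all genes, with that percentile and 2 (Gapdh and Ldha), beside 14.5%, with quantile normalisation. Over the brightest 10% of genes, which hold 8 of the 10 enzymes, 27.6% were called higher with that percentile, with a median difference of 0.08. With quantile normalisation 12.3% of them were called higher, with a median of −0.016.

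**Figure D5:**
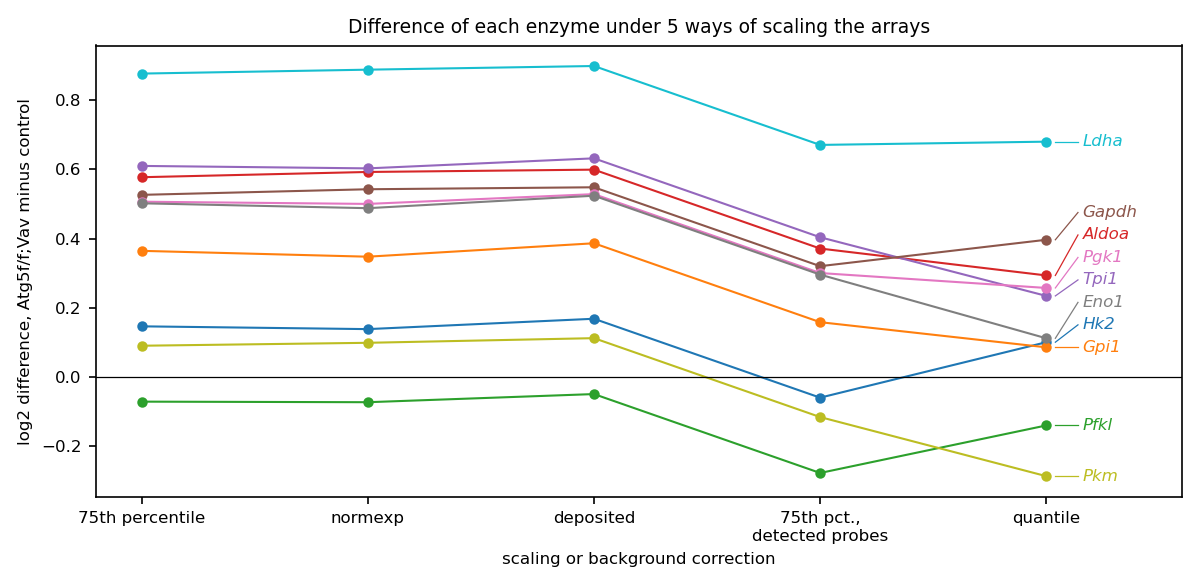
Log2 difference, Atg5f/f;Vav minus control, of the 10 enzymes under 5 ways of correcting the background or scaling the arrays, with 1 line per gene. Ldha stays highest under each, and the lines of Hk2 and Pkm cross 0.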

How the data were processed

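LSK cells of 3 control and 3 Atg5f/f;Vav samples were profiled on 1-colour Agilent arrays. The authors deposited 1 intensity per spot, corrected for background by Agilent Feature Extraction 12.0.3.1 (per the submitters' processing notes) and not scaled between arrays. The authors also deposited a normalised signal on a linear scale, which equals that intensity divided by a constant for each array (spread within an array at most 0.000267%). The array design uses mm9.

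Log2 intensity was taken minus the 75th percentile of each array over spots that are not controls. The 64 to 81 spots of an array with an outlier flag were removed, none was saturated, and spots of a probe were averaged. Limma 3.58.1 (R 4.3.3, lmFit with eBayes, 2-sided) was run on the 32074 probes that stood well above background on 3 or more of the 6 arrays, with Benjamini-Hochberg adjustment over them. A gene is represented by its brightest probe, and gene names were those of the array that match a RefSeq symbol or synonym. Arrays give no read depth, and precision is limited by how many there are. The steps were tested on simulated data.

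The enzymes, the other lists and the tests were chosen with earlier results of these data known. Named beside the 10 enzymes are Atg5, the isozymes of 6 pairs, the genes past the threshold with the largest differences in each list (at most 4 or 2 each way), and the 5 genes closest to the enzymes' profile. Slc2a1, Slc2a3, the marker genes, Gm5523 and Eno1b, the further probes of Idh3g, Suclg1, Sdha and Tkt, and the summary of the brightest 10% of genes, were added after their values were seen. Alternatives were normexp (offset 50), quantile normalisation, a 75th percentile over detected probes, the deposited values, no filter or a filter on all 6 arrays, outliers kept, a trend of the variance with intensity, a block for the replicate number, the methods' t-test, the removal of each array and a gene's mean over its probes. A block for slide or scan was not fitted, as all arrays shared both. Some isozymes are not reported here and were left out of the counts. RefSeq windows (GRCm38.p6) were used for promoters.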

Additional observations from a re-analysis of the deposited data

How the results depend on the processing

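Counts at an unadjusted p are given below without the share of all genes at that p. Of the 10 enzymes, 6 were called higher in limma. The count was 7 with normexp (beside 24% of all genes called higher), with the deposited values (22.7%), among probes detected on all 6 arrays and with an intensity trend (24.9% in each), 3 with the 75th percentile over detected probes (12.7%), 2 with quantile normalisation (14.5%), 2 without a filter on dim probes (8.13%) and 0 with the methods' t-test (7 with an unadjusted p under 0.05), which called 0 of 15136 genes after adjustment, and it ranged from 0 to 6 with 1 array left out. The median difference of 0.50 was 0.17 with quantile normalisation, 0.30 with the 75th percentile over detected probes and 0.41 with the mean of all probes, and ranged from 0.45 to 0.54 with 1 array left out. Of the enzymes' probes, 16 were called higher. This became 10 with quantile normalisation, 0 with the t-test (18 unadjusted) and 0 to 19 with 1 array left out. The 1 called lower became 0 without a filter and with the t-test (1 unadjusted in each) and 0 to 1 with 1 array left out. Of all probes, 34.4% were called in either direction in the main fit. That share was 26.2% with quantile normalisation, 8.02% without a filter, 0% with the t-test and 0.783% to 32.1% with 1 array left out. Of the other pathway genes, 28 were called higher. This became 17 with quantile normalisation, 13 without a filter, 0 with the t-test (31 unadjusted) and 0 to 29 with 1 array left out. The 4 called lower became 1 without a filter, 0 with the t-test (4 unadjusted), 2 with the replicate block and 0 to 5 with 1 array left out. Of all genes, 13.5% were called lower in the main fit. That share was 3.79% without a filter, 0% with the t-test, 11.6% with the replicate block and 0.244% to 14.9% with 1 array left out. With 1 array left out, 0.562% to 18.6% of all genes were called higher.

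Replicate numbers were not treated as pairs in the main fit. Deviations of same-numbered arrays from their group means correlated at −0.07, 0.19 and 0.11, which cannot show whether the samples were paired by design. With the replicate number as a block, 6 enzymes were called higher, and of all genes 20.3% higher and 11.6% lower.

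Directions turned as follows. With quantile normalisation Pkm was −0.29, Mpc2 −0.026 and Sdha −0.0087. With the 75th percentile over detected probes Hk2 was −0.060, Pkm −0.12, Eno3 −0.086, Pfkfb1 −0.0087 and Pfkfb3 −0.046. With the mean of all probes Pfkl was 0.12, Pkm −0.0094, Hk1 0.33, Tkt −0.14, Suclg1 −0.00497, Suclg2 −0.072 and the ratio of Hk2 to Hk1 −0.19. With 1 array left out Hk1 ranged from −0.11 to 0.015 (highest without Atg5f/f;Vav replicate 1) and Slc2a1 from −0.39 to 0.032 (highest without Atg5f/f;Vav replicate 3). No other result changed its direction. The cause of these changes and of the changes in the counts was not tested. With 3 arrays a group, differences of the size of Gpi1's lie near the threshold.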
